A study of Mus musculus with 8 samples.

Results

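The genes described here build and cross-link the elastic part of the extracellular matrix: Adamtsl2, Lox, Loxl1, Loxl2, Loxl3, Fbn1, Fbn2, Ltbp1, Eln and Mfap5. These 10 of the 54532 genes in the deposited count table were chosen from the contrast of the genotypes, around Adamtsl2 and Lox, whose counts were higher in the libraries labelled knockout. Each of the 10 was found in the table once. Their differences between the genotypes are therefore given as a description, and nothing is supported with them.

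RNA was sequenced from the interscapular brown fat of 8 male mice aged 7 months, all on normal chow and all kept at 4 °C for 24 h before dissection. All 8 carried floxed Pparg, which encodes the nuclear receptor at the head of fat cell differentiation. In 4 of them Myl1-Cre was present as well, a recombinase made where the promoter of Myl1, a myosin light chain gene, is on. The other 4 had no Cre and are the control. The series asks what Myl1-positive adipose progenitors contribute to adult brown fat. Cre acts only in cells that have used Myl1, which is also a gene of fast skeletal muscle, and whole tissue was sequenced, so every value is an average over recombined and other cells.

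The libraries held 12226608 to 19268945 counts. Pparg itself was higher in the libraries labelled knockout, at 284 ± 24.9 CPM (mean ± SD, n = 4; CPM are reads scaled to a common library size) against 197 ± 7.36 CPM in the control. The adjusted p was 0.0328 by edgeR, and it ran from 0.0505 to 0.119 with any 1 library left out. Myl1 stood at 367 ± 105 against 378 ± 68.8 CPM. The Pparg difference goes against the label, although a count over the whole gene includes exons outside a floxed part. The group is therefore named by its label, as the libraries labelled knockout. The depot was brown fat by its markers: Ucp1, the gene of the heat-producing uncoupling protein, stood at 11441 ± 1272 CPM in the control and 9303 ± 1473 CPM in the libraries labelled knockout. Skeletal muscle lies beside this depot, and a score of 20 skeletal muscle genes (mean log2 CPM) was 8.71 ± 0.55 in the control and 9.43 ± 0.43 in the libraries labelled knockout. The difference of 0.72 had an exact two-sided permutation p of 0.0857, and with 4 libraries per group this test cannot go below 0.0286. Labelled knockout 4 had a score of 8.78, apart from its group's other libraries at 9.59 to 9.69. Control 1 had the lowest score, 7.98, and the other controls lay between 8.66 and 9.29.

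Elastic fibres form in stages. Fibrillins polymerise outside the cell into microfibrils, which serve as a scaffold on which tropoelastin is laid down, and lysyl oxidases then oxidise lysines of elastin and of fibrillar collagens so that neighbouring chains become cross-linked. The same microfibrils hold latent TGF-beta through the latent TGF-beta binding proteins, and ADAMTS-like proteins such as ADAMTSL2 bind fibrillin and these binding proteins. In fat, this matrix surrounds the cells and the vessels and is made in large part by fibroblasts, progenitors and mural cells.

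Start sites were found for 3 of the 10 genes. They are shown because they set Adamtsl2, the gene with the largest difference of the set, beside Fbn1 and Ltbp1, which encode a microfibril protein and a binding protein of the kinds ADAMTSL2 binds. They are RefSeq start sites on GRCm38.p6, each with 250 bases before the first transcribed base and 50 bases from it. Capitals mark the first transcribed base and any TATAAA motif. The stretches are chr2:27079129-27079428 (plus strand) for Adamtsl2, chr2:125506389-125506688 (minus strand) for Fbn1 and chr17:75005279-75005578 (plus strand) for Ltbp1, the upstream one of its 2 start sites in the table.
Adamtsl2: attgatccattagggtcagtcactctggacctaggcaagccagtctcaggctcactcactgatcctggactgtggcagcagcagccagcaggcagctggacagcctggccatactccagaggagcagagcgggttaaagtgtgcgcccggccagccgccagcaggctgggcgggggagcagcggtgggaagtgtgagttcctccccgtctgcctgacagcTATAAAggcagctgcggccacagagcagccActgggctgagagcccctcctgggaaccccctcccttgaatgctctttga
Fbn1: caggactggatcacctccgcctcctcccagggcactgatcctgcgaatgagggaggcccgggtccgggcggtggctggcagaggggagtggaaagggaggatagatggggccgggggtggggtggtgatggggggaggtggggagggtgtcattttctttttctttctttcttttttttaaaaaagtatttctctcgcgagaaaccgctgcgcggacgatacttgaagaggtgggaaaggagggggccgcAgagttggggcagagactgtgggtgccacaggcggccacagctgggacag
Ltbp1: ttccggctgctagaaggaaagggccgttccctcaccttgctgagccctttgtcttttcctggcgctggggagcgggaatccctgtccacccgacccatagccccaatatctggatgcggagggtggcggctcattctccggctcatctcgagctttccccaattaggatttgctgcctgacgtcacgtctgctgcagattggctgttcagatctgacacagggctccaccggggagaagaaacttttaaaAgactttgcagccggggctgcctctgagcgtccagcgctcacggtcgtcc
The Adamtsl2 stretch holds a TATAAA box that begins at position -30 from the start site, and the Fbn1 and Ltbp1 stretches hold none on either strand. Of 32851 RefSeq stretches of the same length 13.6% hold TATAAA on either strand. The letters CAGAC, the core recognised by SMAD proteins of the TGF-beta pathway, occur on the opposite strand at position -44 of Adamtsl2 and -64 of this Ltbp1 stretch, and in 49.6% of all such stretches. The nuclear receptor half-site AGGTCA, present in 16.3% of all stretches, is in none of these 3 on either strand. The GC content is 62.3% for Adamtsl2, 60.3% for Fbn1 and 58.7% for this Ltbp1 stretch. The stretch of the other Ltbp1 start site, chr17:75178531-75178830, has a lower GC content and holds CAGAC on the opposite strand at -148 and -97. A motif match or its absence in these windows is a description of the letters only.

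Adamtsl2 (ENSMUSG00000036040, GRCm38 chromosome 2, 27079379 to 27108981, plus strand) encodes a secreted glycoprotein of microfibrils, and mutations in the human gene cause geleophysic dysplasia, a disorder of short stature and stiff joints. Control libraries 1 to 4 held 1.05, 0.802, 1.28 and 1.84 CPM. The libraries labelled knockout 1 to 4 held 13.4, 14.5, 14.1 and 5.71 CPM. All 4 libraries labelled knockout were above all 4 controls, and within that group mouse 4 stood well below the other 3, which were close together. The means were 11.9 ± 4.17 against 1.24 ± 0.441 CPM, a ratio of 9.62 and a fitted log2 fold change of 3.30 ± 0.34 (SE). The control level rests on 68 reads over 4 libraries, against 703 in the libraries labelled knockout.

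Within the libraries labelled knockout mouse 4 was lowest in both the skeletal muscle score and Adamtsl2. Mice 1 to 3 of that group had close scores, 9.69, 9.65 and 9.59, and close Adamtsl2 levels, 13.4, 14.5 and 14.1 CPM. Among the controls, control 2 had the highest muscle score, 9.29, and the lowest Adamtsl2 level, 0.802 CPM. The control levels rest on 14 to 22 reads per library, so their order is uncertain. Labelled knockout 4, with a lower score (8.78) than controls 2 and 4, had an Adamtsl2 level above every control. With the score as a covariate the fitted log2 fold change was 2.69 ± 0.39 (SE), and without labelled knockout 4 it was 3.53. Whether skeletal muscle content had a part in the Adamtsl2 difference was not tested beyond the fit with the score. In whole tissue a change in the number of cells of a type and a change in the RNA made per cell cannot be told apart.

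Lox (ENSMUSG00000024529, chromosome 18, 52516067 to 52529867, minus strand) encodes lysyl oxidase, the copper-dependent enzyme that starts the cross-linking of collagen and elastin. Its levels in controls 1 to 4 were 21.3, 18.1, 18.3 and 16.3 CPM. In the libraries labelled knockout they were 30.7, 33, 30.2 and 26.1 CPM. The groups did not overlap, and the lowest library labelled knockout was again mouse 4. The means were 30 ± 2.87 and 18.5 ± 2.04 CPM, a ratio of 1.62 and a fitted log2 fold change of 0.69 ± 0.11 (SE). With the muscle score as a covariate it was 0.71 ± 0.15 (SE). Lox shares 30 bp of exon with an antisense gene, which touches little of its 4778 bp of exon.

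**Figure D1:**
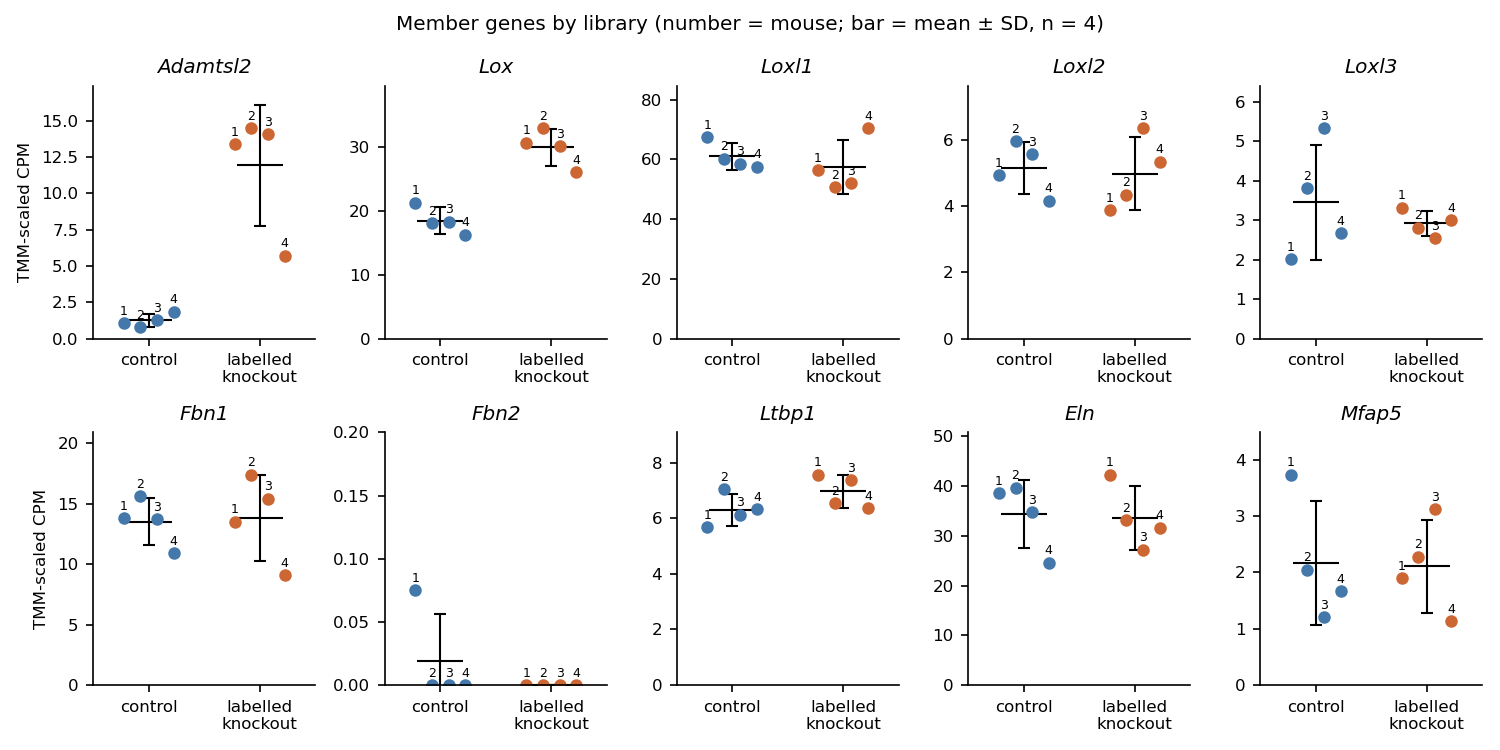
Level of each of the 10 genes in each library, as TMM-scaled CPM on a linear axis from 0, with the mouse number above each point and the mean ± SD of 4 libraries per group as a bar. The Adamtsl2 and Lox panels show groups that lie apart, with labelled knockout 4 lowest in its group in both (5.71 and 26.1 CPM), and the groups overlap for the other genes.

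**Figure D2:**
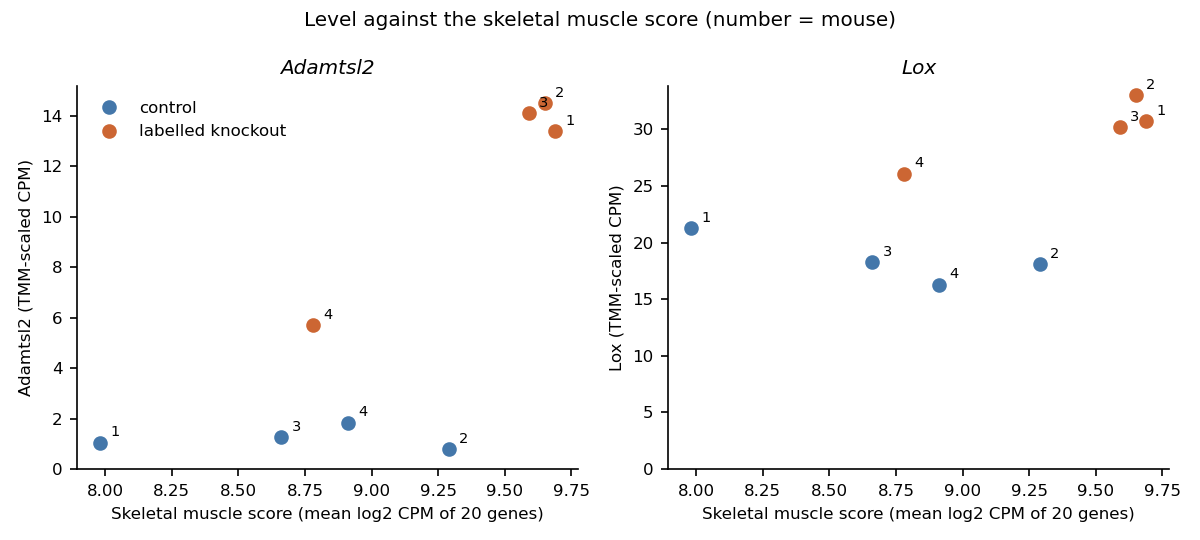
Adamtsl2 and Lox levels (TMM-scaled CPM, vertical axes from 0) against the skeletal muscle score (mean log2 CPM of 20 genes), with 1 point per library and the mouse number beside it. Labelled knockout 4 has the lowest score of its group, 8.78, and for both genes the lowest level of its group, above every control.

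The other enzymes of the family showed no such shift. Loxl1, which binds tropoelastin and is needed in mice for the upkeep of elastic fibres in adults, stood at 67.5, 60.3, 58.6 and 57.6 CPM in controls 1 to 4. In the libraries labelled knockout it was at 56.5, 50.8, 52 and 70.5 CPM. Mice 1 to 3 of that group lay below every control and mouse 4 above every control, so Loxl1 was high where Adamtsl2 and Lox were low within the group. The log2 fold change of Loxl1 was -0.09 ± 0.11 (SE), 0.09 ± 0.11 with the muscle score as a covariate and -0.20 without labelled knockout 4.

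Loxl2, a relative that also acts on the collagen of basement membranes, was at 4.94, 5.96, 5.58 and 4.17 CPM in the control and 3.87, 4.35, 6.36 and 5.35 CPM in the libraries labelled knockout. The groups overlapped and the log2 fold change was -0.05 ± 0.20 (SE). Loxl3, needed in mice for palate and spine, was at 2.02, 3.81, 5.34 and 2.67 CPM in the control and 3.32, 2.81, 2.55 and 3.01 CPM in the libraries labelled knockout. All 4 of the latter lay inside the control range, and the log2 fold change was -0.25 ± 0.28 (SE). Exons of Loxl3 share 535 bp with Htra2 and those of Loxl2 share 301 bp with an antisense gene. Whether reads were counted by strand is not stated in the sources used here, which makes these values uncertain.

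Scaled by exon length, the 4 enzymes added up to 24.1 ± 1.65 CPM per kb of exon in the control and 25.3 ± 2.23 in the libraries labelled knockout. Loxl1 made up 76.8 ± 1.8% of this sum in the control and 68.7 ± 4.5% in the libraries labelled knockout. The share of Lox was 16.1 ± 0.7% against 25.1 ± 4.2%. By library the Lox share was 16.9, 15.8, 16.1 and 15.4% in the control and 25.7, 29.1, 26.5 and 19.2% in the libraries labelled knockout. For the Lox share the groups lay apart, with labelled knockout 4 nearest to the control. The Loxl1 shares overlapped, at 75.1% in labelled knockout 4 and 74.7% in control 3. Lox was chosen for its higher counts in the libraries labelled knockout, so the shares restate that choice and are a description. Loxl2 and Loxl3 together held the small remainder, with shares of 4.0 and 3.2% in the control and 3.7 and 2.5% in the libraries labelled knockout.

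The microfibril genes themselves overlapped between the groups. Fbn1, which encodes fibrillin-1, the main microfibril protein and the gene mutated in human Marfan syndrome, was at 13.8, 15.6, 13.7 and 10.9 CPM in the control. In the libraries labelled knockout it was at 13.5, 17.4, 15.4 and 9.08 CPM. Mouse 4 was lowest in both groups, and the log2 fold change was 0.03 ± 0.19 (SE). Fbn1 shares 2442 bp of its 12128 bp of exon with Gm9913 on the opposite strand, which makes its value uncertain.

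Fbn2, whose fibrillin-2 is used mainly in development, had 1 read in control 1 and 0 in the 7 other libraries. A count of 0 allows up to 0.156 to 0.245 CPM in these libraries, for counting error only, so no comparison was possible at this depth. Mfap5, which encodes a small glycoprotein bound to microfibrils, was at 3.74, 2.05, 1.2 and 1.67 CPM in the control and 1.9, 2.28, 3.12 and 1.14 CPM in the libraries labelled knockout. With 126 reads per group and a coefficient of variation of 51.2% among controls, its log2 fold change of -0.04 ± 0.39 (SE) was the least precise of the set.

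Ltbp1, the binding protein that anchors latent TGF-beta to microfibrils, varied little between libraries, with coefficients of variation of 9.08% and 8.58%. It was at 5.69, 7.06, 6.14 and 6.34 CPM in the control and 7.58, 6.56, 7.38 and 6.37 CPM in the libraries labelled knockout. Of the latter 2 lay above every control, and the log2 fold change was 0.14 ± 0.14 (SE), or -0.01 ± 0.17 with the muscle score as a covariate. Eln, which encodes tropoelastin, was at 38.5, 39.7, 34.7 and 24.6 CPM in the control and 42.3, 33.2, 27.2 and 31.6 CPM in the libraries labelled knockout. The groups overlapped widely, and the log2 fold change was -0.04 ± 0.17 (SE). Eln shares 267 bp of exon with an antisense gene.

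**Figure D3:**
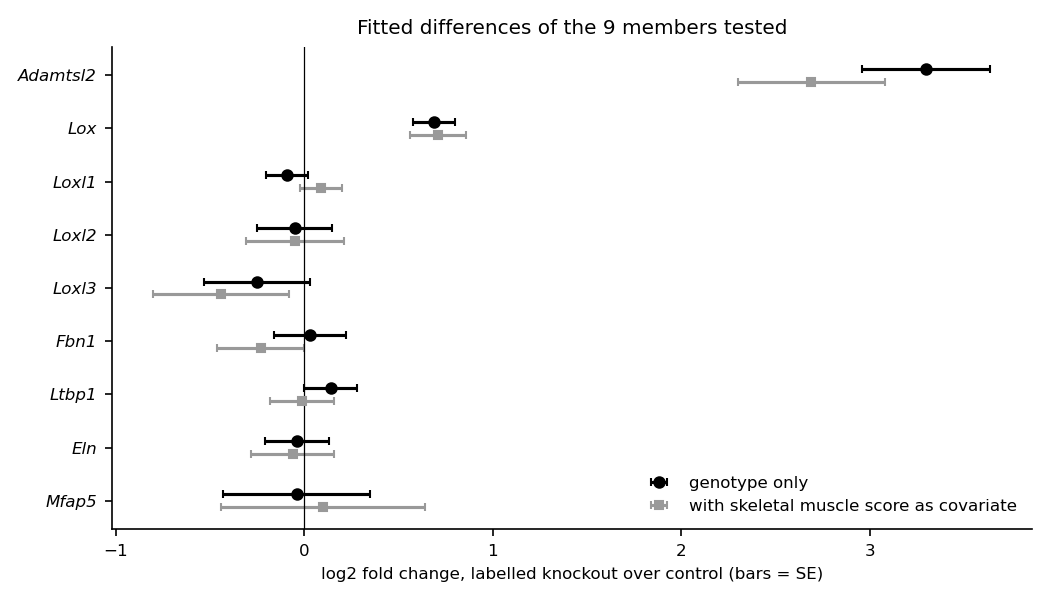
Fitted log2 fold changes of the libraries labelled knockout over the control (horizontal axis, bars are SE) for the 9 genes tested, from the fit on genotype alone and from the fit that adds the skeletal muscle score as covariate. Adamtsl2 (3.30 and 2.69) and Lox (0.69 and 0.71) lie apart from 0, and the other 7 lie between -0.25 and 0.14 in the fit on genotype alone.

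In the test across 13756 genes (edgeR's quasi-likelihood test with Benjamini-Hochberg adjustment, threshold 0.05), 9 of the 10 genes were tested, Fbn2 having too few reads. Of these 9, 2 were called higher and 0 lower, against 0.291% of all genes called higher and 0.0945% called lower. The 2 are Adamtsl2 and Lox, around which the set was chosen, so the count is not read further. The same 2 were the only ones of the 9 whose groups did not overlap, where all 4 libraries labelled knockout lay above the control in 4.10% of all genes and below it in 4.00%. The adjusted p of the other 7 ran from 0.669 for Ltbp1 to 0.973 for Mfap5, which does not show that they were equal between the groups. The median log2 fold change of the 9 was -0.04, and that of all genes tested was 0.00. Adamtsl2 was called in each of the 16 alternative fits. The Lox call was lost without control 2 or 4 or labelled knockout 1, 2 or 3 (adjusted p from 0.0578 to 0.0871) and once the muscle score entered as a covariate (0.184), with log2 fold changes from 0.64 to 0.71 in these fits.

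The levels of the genes relative to each other were compared per kb of exon. Adamtsl2 and Lox were chosen from the contrast of the groups, which uses their values in the control as well as in the libraries labelled knockout. For both genes the place in either group's order is therefore tied to the choice and is a description. In the control Loxl1 was highest, at 18.5 ± 1.35 CPM per kb of exon, 4.36 times the next gene and apart from it in every library. Eln, at 4.24 ± 0.847, and Lox, at 3.87 ± 0.426, overlapped. Fbn1 followed at 1.11 ± 0.158, 3.48 times below Lox. Fbn1, Loxl2 (0.955 ± 0.145), Loxl3 (0.752 ± 0.316), Mfap5 (0.603 ± 0.309) and Ltbp1 (0.59 ± 0.0536) each overlapped with the next in order. Adamtsl2 came after them at 0.155 ± 0.0552, below Ltbp1 in all 4 controls by a ratio of means of 3.8, and Fbn2 was last.

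In the libraries labelled knockout Loxl1 was again first, at 17.4 ± 2.75 CPM per kb of exon. Lox, at 6.27 ± 0.6, was above Eln, at 4.15 ± 0.788, in every library. Adamtsl2 had rank 4 of the 10, at 1.49 ± 0.522, and overlapped with Fbn1 at 1.14 ± 0.293. Within this group Adamtsl2 was above Fbn1 in 3 of 4 libraries. Exon lengths were taken over all annotated transcripts, so a gene that uses a short isoform is placed too low.

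**Figure D4:**
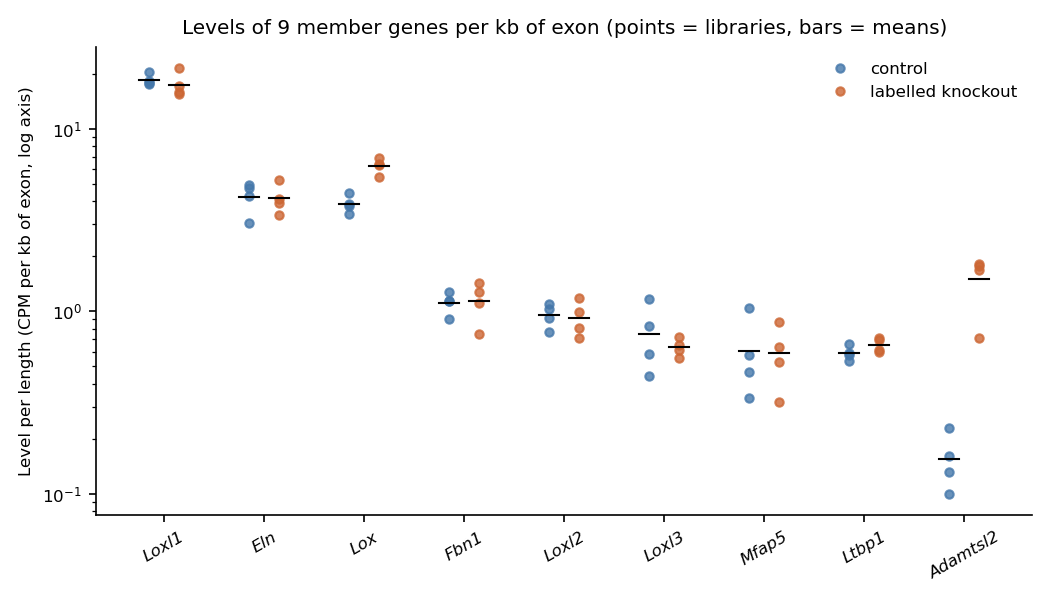
Level of 9 of the genes as CPM per kb of exon on a log axis, ordered by the control mean, with 1 point per library and bars at the group means; Fbn2 is left out because it had 1 read in all. Loxl1 is highest in both groups (18.5 and 17.4), and Adamtsl2 goes from last of the 9 in the control (0.155) to rank 4 in the libraries labelled knockout (1.49).

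Within the groups, the patterns of the genes over the 8 libraries were compared after each group's mean was subtracted. Among the members with at least 5 CPM, the pattern of Lox was most like that of Fbn1 (Pearson r = 0.76), then Eln (0.51). The pattern of Adamtsl2 had r = -0.84 with that of Loxl1 and r = 0.27 with that of Lox. Among 9715 genes with at least 5 CPM, those most like Adamtsl2 were Zfp3 (r = 0.97), Dhx36 (0.95) and Skil (0.95), and those most like Lox were Sugp1, Bmp2k and Sik1 (each 0.96). These are the highest of 9715 values over 8 libraries that share their scaling, and they are given as a description. Adamtsl2 reached a mean of 5 CPM, at 6.59 over the 8 libraries, only through the libraries labelled knockout (11.9 against 1.24 CPM in the control). Its variation among the controls rests on 68 reads, and in the other group labelled knockout 4 lay farthest from the rest. No conclusion is drawn from its r values.

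Genes of the same pathway outside the set were read from 4 lists. Of 22 further elastic fibre genes 18 were tested. By edgeR 1 was called higher and 0 lower, against 0.291% and 0.0945% of all genes. At an unadjusted p under 0.05 there were 5 of 18, against 15.2% of all genes tested. The gene called was Efemp1, which encodes the extracellular matrix glycoprotein fibulin-3. It stood at 7.04, 8.22, 5.58 and 5.17 CPM in controls 1 to 4 and 15, 12.5, 14.6 and 12.4 CPM in labelled knockout 1 to 4. These 4 lay above every control, as was the case in 4.10% of all genes. The means were 13.6 ± 1.35 against 6.5 ± 1.4 CPM, and the log2 fold change was 1.05 ± 0.16 (SE; adjusted p = 0.0183 by edgeR). The call was lost without control 4 (adjusted p = 0.0554), labelled knockout 1 (0.0781) or labelled knockout 3 (0.0793). It was also lost once the muscle score entered as a covariate (0.192, log2 fold change 0.95).

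Other fibulins did not pass. Fbln5, which links elastin to cells and to lysyl oxidases, had a log2 fold change of 0.11 ± 0.15 (SE), Efemp2, which helps to bring Lox to elastin, one of -0.16 ± 0.15, and Fbln1 one of -0.72 ± 0.32. The latent TGF-beta binding proteins other than Ltbp1 did not pass either: Ltbp2 stood at -0.38 ± 0.11, Ltbp3 at 0.10 ± 0.14 and Ltbp4 at -0.03 ± 0.11 on the log2 scale. The relatives of Adamtsl2 that were tested lay between -0.16 ± 0.27 (Adamtsl3) and 0.42 ± 0.15 (Adamtsl5), and none passed. The median of the 18 was 0.10, against 0.00 for all genes tested. Efemp2, Ltbp2 and Ltbp3 share exon sequence with opposite-strand genes, which makes them uncertain.

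Among 22 genes of TGF-beta ligands, receptors, activators and targets 21 were tested and 0 passed in either direction by edgeR, with a median log2 fold change of 0.03. At an unadjusted p under 0.05 there were 6 of 21, against 15.2% of all genes tested. In 1 of the 21, Tgfb3, all libraries labelled knockout lay above all controls, against 4.10% of all genes. In 1, the gene Skil (log2 fold change -0.34 ± 0.14, SE), they all lay below, against 4.00%. The most abundant were Pmepa1, a TGF-beta target and inhibitor, at 290 ± 54.6 against 393 ± 60 CPM (log2 fold change -0.44 ± 0.15), and the co-receptor Eng at 216 ± 22 against 212 ± 28.8 CPM (0.03 ± 0.11). Eng, Ctgf, Tgfb2 and Tgfb3 share exon sequence with opposite-strand genes, which makes them uncertain. The target Ctgf (-0.44 ± 0.23) did not pass. The ligand genes Tgfb1, Tgfb2 and Tgfb3 had log2 fold changes of -0.08 ± 0.12, 0.70 ± 0.29 and 0.42 ± 0.15, and none passed.

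Genes of matrix proteins and processing enzymes did not pass either. Of 10 genes for fibrillar collagens and other matrix proteins (Fn1, Postn and Tnc) 9 were tested. Of these 9, 2 were at an unadjusted p under 0.05 (15.2% of all genes), and the median log2 fold change was 0.06. Postn, which encodes the matrix protein periostin, stood at 88.4 ± 3.73 against 75.7 ± 9.93 CPM (log2 fold change 0.22 ± 0.10) and Col3a1, a fibrillar collagen gene, at 68.4 ± 8.94 against 65.5 ± 11.4 CPM (0.06 ± 0.13). Of 20 genes for collagen and LOX processing 16 were tested, with 5 at an unadjusted p under 0.05 (15.2% of all genes) and a median of 0.12. In 4 of the 16 all libraries labelled knockout lay above all controls, against 4.10% of all genes, and in 1 below, against 4.00%. The 4 were Pcolce, whose protein enhances procollagen processing (49.5 ± 9.5 against 34.8 ± 1.88 CPM, log2 fold change 0.51 ± 0.13, adjusted p = 0.125 by edgeR), the prolyl hydroxylase genes P4ha1 (0.27 ± 0.11) and P4ha2 (0.44 ± 0.15), and P3h3 (0.48 ± 0.19). The 1 below was the lysyl hydroxylase gene Plod1 (-0.13 ± 0.07). None of these 5 passed the test, and Pcolce shares exon sequence with other genes. Serpinh1, a collagen chaperone gene, stood at 344 ± 21.8 against 349 ± 20.9 CPM and Tgm2, a transglutaminase gene, at 193 ± 11.9 against 173 ± 9.86 CPM. Tgm2 shares exon sequence with opposite-strand genes, which makes it uncertain. Bmp1, whose protease cuts pro-lysyl oxidase to its active form, had a log2 fold change of 0.09 ± 0.12, and Atp7a, the copper pump that supplies lysyl oxidases, one of 0.06 ± 0.31.

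**Figure D5:**
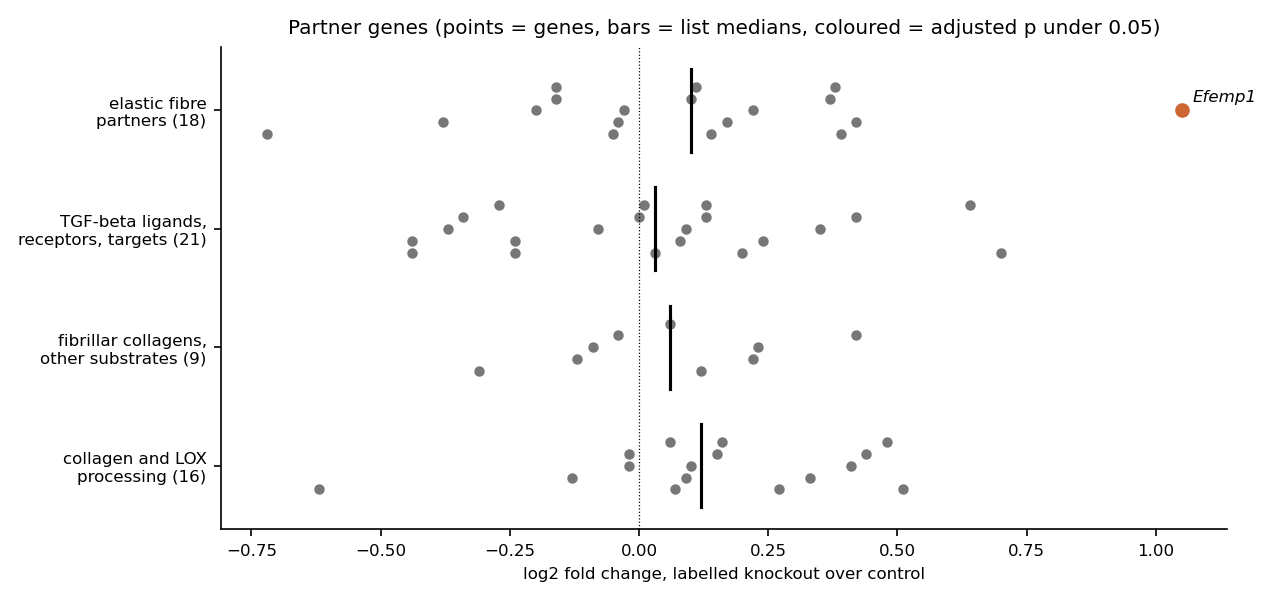
Log2 fold changes of the libraries labelled knockout over the control for genes of 4 pathway lists (points, with the number tested beside each list), with bars at the list medians and genes past an adjusted p of 0.05 coloured and named. Efemp1, at 1.05, is the 1 coloured gene, and the medians lie between 0.03 and 0.12. The genes drawn as other substrates are the matrix protein genes Fn1, Postn and Tnc.

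Cell types that make this matrix or lie near it were read from their markers, set beside 50.3% of all genes tested with a log2 fold change above 0. The fibroblast and progenitor list (10 genes, 9 tested) summed to 274 to 331 CPM in the control and 326 to 373 CPM in the libraries labelled knockout, with 6 of 9 above 0, a median log2 fold change of 0.16 and no gene at 0 in all libraries. Of these Dcn stood at 157 ± 4.07 against 130 ± 16.1 CPM and Lum at 14.7 ± 1.82 against 10.3 ± 0.916 CPM. In both the libraries labelled knockout lay above every control, against 4.10% of all genes, and neither passed the test. The 3 below 0 were Pi16 (log2 fold change -0.39 ± 0.30, SE), Cd34 (-0.11 ± 0.10) and Dpp4 (-0.03 ± 0.52). These 3 share exon sequence with opposite-strand genes, which makes them uncertain. The mural list summed to 478 to 657 and 546 to 656 CPM (7 of 10 above 0, median 0.10), and the endothelial list to 793 to 1219 and 907 to 1014 CPM (5 of 8, median 0.02). The macrophage list summed to 95.8 to 134 and 96.9 to 171 CPM, with 8 of 8 above 0 and a median of 0.32. The Schwann cell list summed to 72.5 to 82.7 and 88.7 to 114 CPM, with 6 of 6 above 0 and a median of 0.45. Of the 6 genes 1 was called higher, Pmp22 (adjusted p = 0.0416 by edgeR), against 0.291% of all genes. The Pmp22 call was lost when any 1 of the 8 libraries was left out (0.0596 to 0.148) and with the muscle score as covariate (0.069). The skeletal muscle list summed to 6465 to 17482 and 12490 to 23477 CPM, with 20 of 20 above 0, a median of 0.71 and 0 calls by edgeR (15 of 20 at an unadjusted p under 0.05, against 15.2% of all genes). Of 8 tendon, fascia and cartilage genes 2 were tested, at 2.42 to 6.36 and 2.46 to 5.62 CPM for the 8 summed, and Chad was at 0 in all libraries. The 2 tested had few reads and went opposite ways, Scx at a log2 fold change of 1.05 ± 0.39 (SE) and Thbs4 at -0.99 ± 0.60. Neither passed the test. The adipocyte list summed to 28777 to 34438 and 22955 to 29622 CPM, with 8 of 8 below 0, a median of -0.31 and 0 calls by edgeR. In 3 of the 8 all libraries labelled knockout lay below all controls, against 4.00% of all genes. The 3 were Plin1 (log2 fold change -0.50 ± 0.12, SE), Elovl3 (-0.95 ± 0.24) and Lipe (-0.49 ± 0.13). Elovl3 and Lipe share exon sequence with opposite-strand genes, which makes them uncertain. The part of these cell types in the levels of Adamtsl2, Lox and Efemp1 was not tested, apart from the fits with the skeletal muscle score.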

How the data were processed

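RNA of 8 brown fat samples, labelled as separate mice, was analysed from the deposited gene counts. Columns were assigned by genotype and mouse number. Per the labels' protocols the libraries were stranded mRNA libraries. Per the submitters' processing notes the tools were HISAT2, featureCounts, Subread, SAMtools, Trimmomatic and FastQC, and the build was GRCm38. Their versions, order and settings, strand and annotation included, are not stated in the sources used here. The values as deposited are whole-number counts per gene, not normalized by the authors.

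Library sizes were scaled by TMM to give CPM. The filterByExpr filter kept 13756 genes, on which edgeR's quasi-likelihood test compared the genotypes (edgeR 4.0.16, limma 3.58.1, R 4.3.3), adjusted by Benjamini-Hochberg over all genes tested. When tested on simulated counts, the share of false calls was above the nominal rate, so calls near the threshold are less certain than their adjusted p. SE is the absolute log2 fold change over the square root of F. Also run were DESeq2 1.42.0, limma-voom, other scalings and filters, a block for the mouse number, the muscle score as a covariate, and leaving out each library. Positions, exon lengths and overlaps are from GENCODE vM21 (GRCm38), where 99.8% of the IDs were found, and the submitters may have counted on another release.

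The genes, the pathway and marker lists, and the tests were chosen with earlier results of these data known. Named are the 10 genes, Pparg, Myl1, for each pathway list the members past the threshold (at most 4) or else the 2 most abundant, and the 3 genes most like Adamtsl2 and Lox each. Ucp1 and list members named beside these by their role were chosen after their values were seen. So were Dcn, Lum, Pi16, Cd34, Dpp4, Plin1, Elovl3, Lipe, Pmp22, Chad, Scx, Thbs4, Pcolce, P4ha1, P4ha2, P3h3 and Plod1. No 2 libraries of a group agreed within sampling noise. Reads are not counted as molecules, so the limit set by a count of 0, taken as 3 counts, covers only counting error.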

Additional observations from a re-analysis of the deposited data

Results flagged for a closer look

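In groups of 4 libraries, a library was marked when its gap to the nearest of the others was a larger part of the group's range than Dixon's 95% critical value. This was tested 38 times and marked 4 values, of which 2 were in labelled knockout 4 and 2 in control 3, where chance marks about 1 in 20 groups. Adamtsl2 was at 5.71 CPM in labelled knockout 4, against 13.4 to 14.5 CPM in the other libraries of that group (gap 0.883 of the range). The skeletal muscle score was 8.78 in the same library, against 9.59 to 9.69 in the others (0.893). Eng was at 255 CPM in control 3, against 194 to 200 CPM in the other controls (0.903). Pparg was at 186 CPM in control 3, against 200 to 202 CPM in the other controls (0.856).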

How the results depend on the processing

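The 40 higher and 13 lower calls by edgeR became 118 and 69 without a low-count filter, 209 and 152 by DESeq2, which was run on 24366 genes so that both tool and filter differ, 109 and 46 with the mouse number as a replicate block, and 20 and 1 once the muscle score entered as covariate. Leaving out 1 library gave 23 to 38 higher and 0 to 37 lower calls (edgeR, 1585 genes at an unadjusted p under 0.05 in the fit with 0). The causes were not tested. The labels do not state that the mouse numbers pair the samples. Deviations of same-numbered libraries correlated at 0.02 to 0.40, and 3 of 8 libraries correlated best with their own number. With so few libraries this does not settle whether the samples are paired. With this block the adjusted p of Pmp22 was 0.0523. The log2 fold change of Adamtsl2 ran from 2.69 to 3.54 over 16 alternatives, that of Lox from 0.64 to 0.77 and that of Efemp1 from 0.95 to 1.19. The muscle score difference was 0.47 to 0.93 with 1 library left out and 0.76 and 0.73 with total count and upper-quartile scaling (alternatives added after the data were seen). Genes near 0 changed sign without passing in any fit. With the muscle score as a covariate Loxl1 was at 0.09, Fbn1 at -0.23, Ltbp1 at -0.01 and Mfap5 at 0.10, Fbn1 was at -0.02 in limma-voom, and Serpinh1 at 0.01 with total count scaling. With 1 library left out the ranges were -0.19 to 0.05 for Loxl2, -0.43 to 0.02 for Loxl3, -0.10 to 0.19 for Fbn1, -0.17 to 0.05 for Eln, -0.30 to 0.34 for Mfap5, -0.22 to 0.12 for Myl1, -0.04 to 0.13 for Eng, -0.03 to 0.18 for Col3a1 and -0.06 to 0.01 for Serpinh1. Depth limits Fbn2, Mfap5, Loxl3 and the control level of Adamtsl2 most.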
